A study of Penaeus monodon with 38 samples.

Results

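The 4 housekeeping genes described here, of the black tiger shrimp Penaeus monodon, were read by 10 of the 2240 probes on the array. They are ribosomal protein L18 (3 probes), a 40S ribosomal small subunit protein (3 probes), ubiquitin (2 probes) and histone H1 (2 probes). A probe was taken when its description in the files named 1 of these 4 genes, and NADH:ubiquinone oxidoreductase was left out. The 4 targets are among 921 on the array, and all 4 come from an eyestalk cDNA library that gave 52 targets. The files do not say which protein of the small subunit the 40S target encodes.

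Ribosomal protein L18 belongs to the large subunit of the ribosome, and the 40S protein to the small subunit that reads the mRNA. Ubiquitin is a small protein that is attached to other proteins, often to mark them for breakdown by the proteasome, and animal genomes encode it as repeats or as fusions to ribosomal proteins. Histone H1 is the linker histone, which binds the DNA between nucleosomes and compacts chromatin. In animals the mRNAs of the histones made during DNA replication mostly lack a poly(A) tail, and the RNA here was copied from an oligo(dT) primer. Growing oocytes of many animals store ribosomes and mRNAs for the embryo.

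The 10 probe sequences are shown because the probes of a gene are read separately below and often disagreed. Each is named by the first and last base of its match in the target sequence, since no genome position was used here. The only capitals are in the histone H1 probes and mark the 8 bases that both share.
Ribosomal protein L18, bases 57-91: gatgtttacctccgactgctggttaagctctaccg
Ribosomal protein L18, bases 211-245: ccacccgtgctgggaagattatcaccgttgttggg
Ribosomal protein L18, bases 251-285: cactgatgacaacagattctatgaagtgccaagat
40S protein, bases 89-123: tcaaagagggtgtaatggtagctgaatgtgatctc
40S protein, bases 217-250: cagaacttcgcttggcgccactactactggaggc
40S protein, bases 297-331: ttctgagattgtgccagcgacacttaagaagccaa
Ubiquitin, bases 123-157: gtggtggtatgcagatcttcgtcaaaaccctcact
Ubiquitin, bases 283-317: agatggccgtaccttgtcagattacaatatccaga
Histone H1, bases 52-85: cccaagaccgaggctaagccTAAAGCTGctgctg
Histone H1, bases 351-385: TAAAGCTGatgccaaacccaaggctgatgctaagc
Their GC content was 40% to 58.8%, around the median of 45.7% over all probes. No probe of another target shared a run of 15 or more bases with any of the 10, and the longest shared runs were 10 to 12 bases.

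The 38 arrays held RNA of adult females from 5 groups. Captive-reared females gave 4 ovary and 4 eyestalk arrays, each a pool of 3 animals, at 4 stages: before ablation, previtellogenic after ablation, vitellogenic and elongated cortical rod. Wild-caught females gave 12 ovary arrays, 12 eyestalk arrays and 6 cephalothorax arrays. Their 6 stages were preablation, 2 h and 24 h after removal of 1 eyestalk (together previtellogenic here), then vitellogenic, round cortical rod and elongated cortical rod (together vitellogenic here). Wild ovary and eyestalk had 2 arrays per stage, from pools of 4 and 5 animals, and cephalothorax had 1 array per stage. Ablation removes a source of hormones that restrain ovarian growth, and the cortical rods are stores in the late oocyte. Pooling means that the p-values below measure the spread between pools and stages, not between single animals. In tissue RNA, fewer cells of a type and less RNA per cell cannot be told apart.

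Levels are log2 normalised intensities and are compared only within a probe. The median foreground of an array ran from 72.3 to 384 intensity units, and 22.1% to 50.4% of its probes lay above a non-specific level, the 90th percentile of 24 probes derived from vertebrates. Of 16 probes of ovary marker genes, 15 were higher in wild ovary than in wild eyestalk, and of 77 eyestalk marker probes, 47 were lower in wild ovary than in wild eyestalk and 62 were higher in wild eyestalk than in cephalothorax. Of 34 cephalothorax marker probes, 22 were lower in wild ovary and 14 lower in wild eyestalk than in cephalothorax. Against the labels, 5 eyestalk marker probes were higher in wild ovary than in wild eyestalk, and 7 cephalothorax marker probes were higher in wild ovary and 1 in wild eyestalk than in cephalothorax. No spot of the 10 probes was saturated, and their foreground ran from 74.9 to 17619.

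The position of an array within its scan set moved with many of the values. A scan set is the group of arrays whose raw data names share a stem, and the labels number the arrays of a set from 1 to 4. Sets 1 to 3 held wild ovary and sets 4 and 5 wild eyestalk, under 1 name prefix. Under a second prefix, set 6 held wild eyestalk, set 7 captive ovary, set 8 captive eyestalk, and sets 9 and 10 cephalothorax. Captive origin and scan set therefore cannot be told apart within a tissue, and no set held more than 1 tissue.

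In the 4 full sets of the second prefix, 6 of the 10 probes were lowest on the same array number in every set, against 22.6% of all 2240 probes. The 40S probe 89-123 read 7.51, 8.30, 7.55 and 8.44 on array 1 of sets 6, 7, 8 and 9, on average 1.96 below its set's mean (-1.96). The 40S probe 297-331 read 7.56, 7.90, 8.19 and 7.90 on array 2 of the same sets, with a mean deviation of -2.04. These sets came from 3 tissues and both origins, and the low arrays of a probe had the same number in all of them. Sets 7, 8 and 9 also held their stages in the same order, with preablation on array 1 and a previtellogenic stage after ablation on array 2. Set 6 held 24 h after ablation on array 1 and the vitellogenic stage on array 2. Ribosomal protein L18 57-91 (-0.93), L18 251-285 (-0.59) and ubiquitin 283-317 (-1.36) were also lowest on array 1 in all 4 sets, and 40S 217-250 (-1.62) on array 2. In the 5 sets of the first prefix, 3 of the 10 probes were lowest on 1 array number throughout, against 17.5% of all probes. Those were L18 211-245 on array 1 (-0.75), 40S 89-123 on array 2 (-0.78) and 40S 217-250 on array 3 (-0.67).

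**Figure D1:**
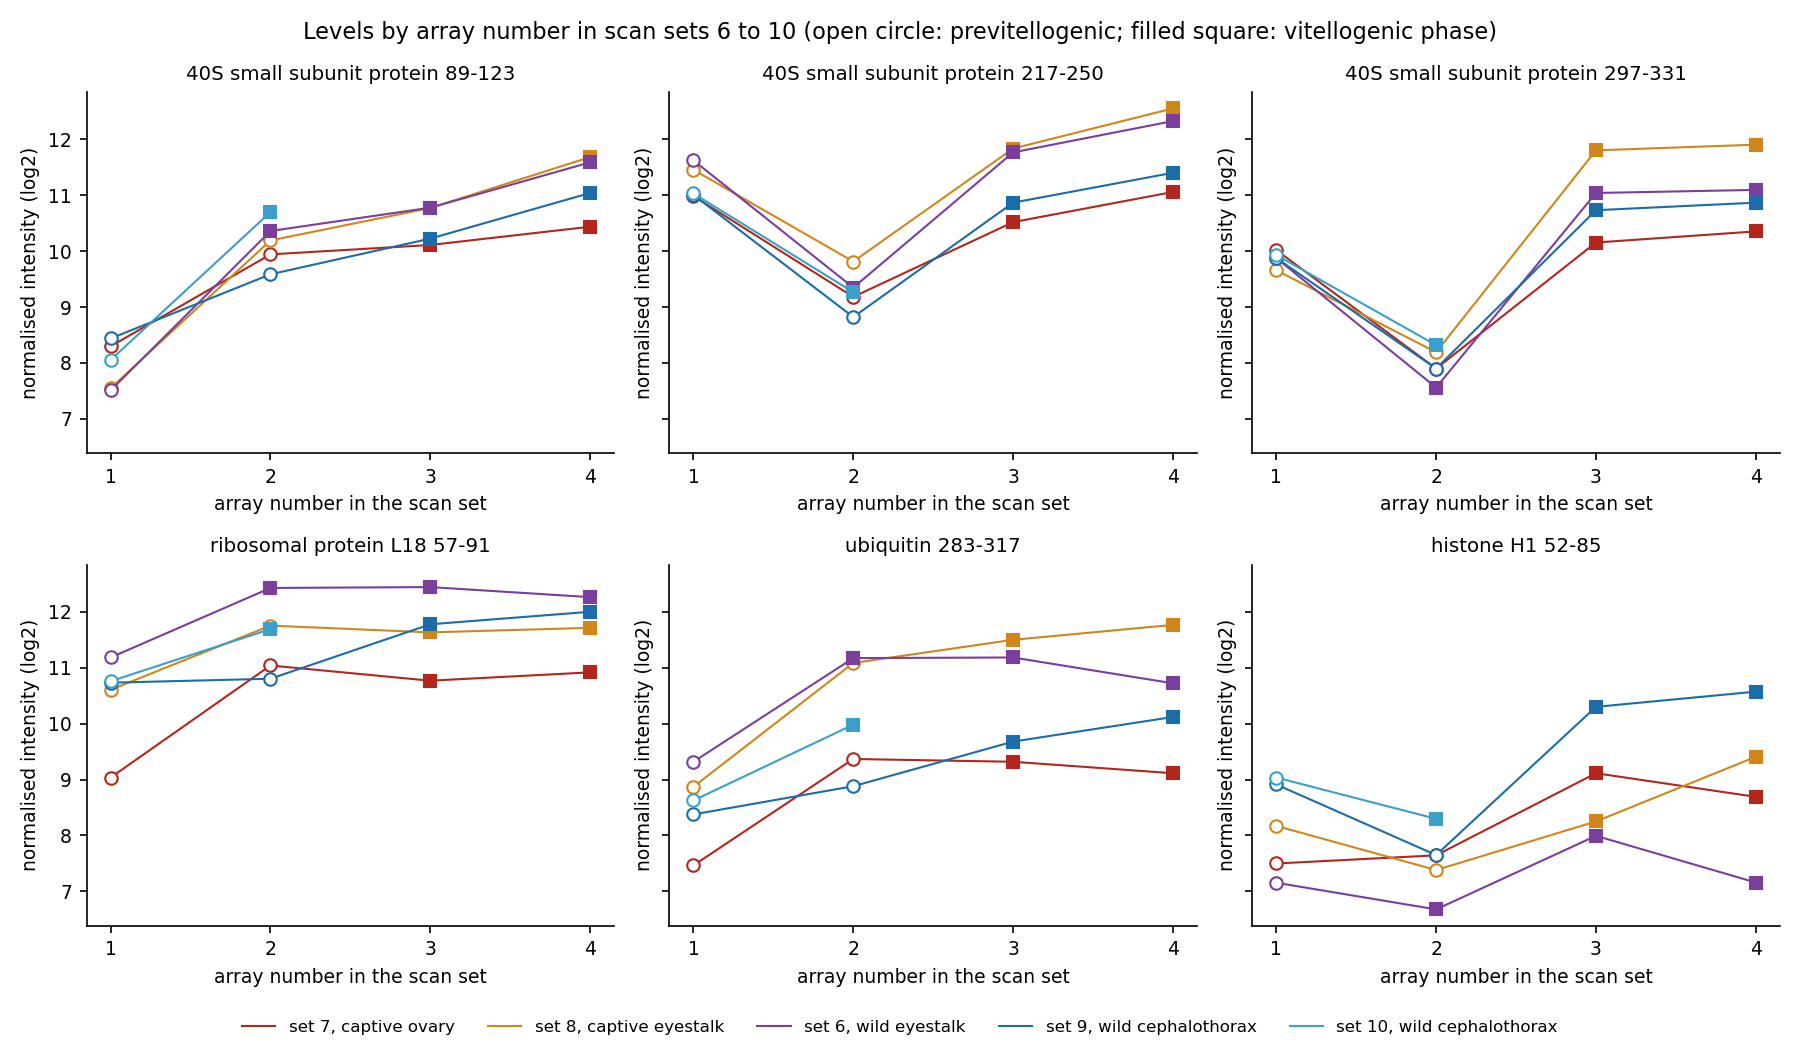
Log2 normalised intensity (y axis) of 6 probes against array number 1 to 4 (x axis) in scan sets 6 to 10, one line per set, with open circles for previtellogenic and filled squares for vitellogenic stages. The 40S probe 89-123 dips on array 1 and the 40S probes 217-250 and 297-331 on array 2 in every set shown.

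Because of this pattern, the called results below are also given between arrays of the same number, or with array number as a term of the fit, where that changed the call or moved the value most. These settings were added after the data had been seen. Array 1 of sets 6 to 10 was always a previtellogenic stage. In captive ovary and eyestalk, arrays 1 and 2 were the previtellogenic stages and arrays 3 and 4 the vitellogenic ones, so phase and array number cannot be told apart there.

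The 10 probes varied more between arrays of a group than most probes did. Their median SD was 0.83 in captive ovary, 0.90 in captive eyestalk, 0.47 in wild ovary, 0.96 in wild eyestalk and 0.76 in cephalothorax. Over all probes the medians were 0.36, 0.26, 0.26, 0.32 and 0.28 in the same groups, and over probes that exceeded the non-specific level on at least 1 array of the group they were 0.54, 0.72, 0.36, 0.68 and 0.52. When the 5 group means of each probe were put in order, 3 of the 40 neighbouring pairs differed by more than the larger SD of the pair. These were L18 211-245 and ubiquitin 123-157, both lower in captive than in wild ovary, and 40S 217-250, lower in captive ovary than in wild eyestalk.

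**Figure D2:**
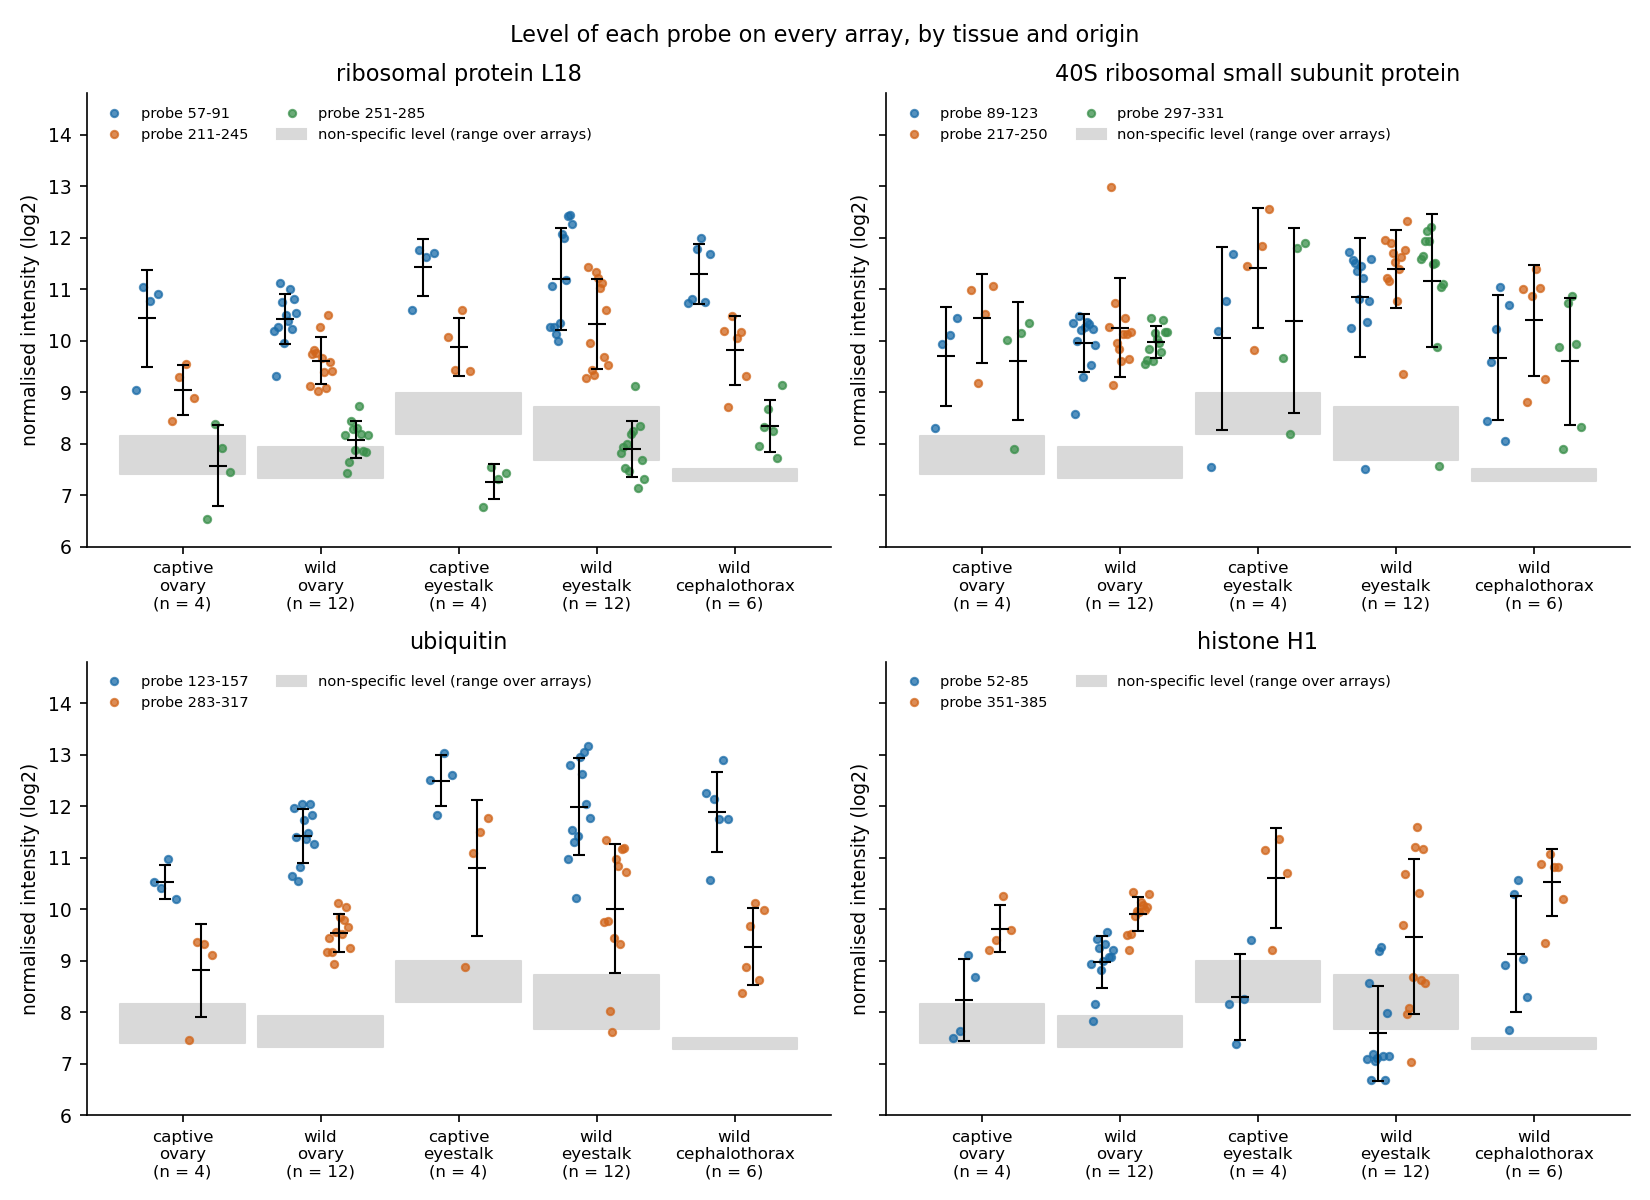
Log2 normalised intensity (y axis) of the 10 probes in captive ovary, wild ovary, captive eyestalk, wild eyestalk and wild cephalothorax (x axis), with points for arrays, bars for the mean and SD, and a grey band for the range of the non-specific level. Most groups overlap, and the histone H1 probe 52-85 of wild eyestalk lies mostly below the grey band.

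Between wild ovary and wild eyestalk, the ribosomal probes were mostly lower in ovary and 1 histone H1 probe was higher. By limma with adjustment over all 2240 probes, 6 of the 10 probes were called at an adjusted p under 0.05, where 65.6% of all probes were called. Of the 10, 5 were lower in ovary (2 of L18 and all 3 of the 40S protein), where 37% of all probes were, and 1 was higher (H1 52-85), where 28.6% were. The median change of the 10 was -0.64, against -0.06 over all probes and -0.57 over the 816 brighter probes, those above the non-specific level on most arrays. With median scaling in place of quantile normalisation, the median of the 10 was 0.29 and that of the brighter probes -0.14, so the calls of the ribosomal probes depended on the scaling, as given for each probe below. Median scaling called 2 of the 10 probes, both of histone H1 and both higher in ovary, where 58.7% of all probes were called.

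The 40S protein was lower in wild ovary by all 3 probes under quantile normalisation. Its probe 297-331 ran from 9.54 to 10.44 over 12 wild ovary arrays (median 10.00), against 7.56 to 12.20 over 12 wild eyestalk arrays (median 11.55). The eyestalk arrays of scan sets 4 and 5 lay between 11.50 and 12.20, above every ovary array, and the eyestalk arrays of set 6 spread downwards from 11.10 past the ovary values. The change was -1.19 ± 0.40 (SE, adjusted p = 0.00937), and -0.25 (adjusted p = 0.673) with median scaling. Among arrays of the first prefix alone, with array number in the fit, it was -1.83 ± 0.13 (adjusted p = 3.51e-10), in a fit that called 74.7% of all probes. With median scaling added to that fit, the change was -1.08 (adjusted p = 0.00223), where 75.7% of all probes were called.

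The other 40S probes moved the same way with more overlap. Probe 217-250 ran from 9.15 to 12.99 in wild ovary (median 10.13), against 9.35 to 12.33 in wild eyestalk (median 11.57), and differed by -1.14 ± 0.36 (adjusted p = 0.00654), or -0.05 (adjusted p = 0.918) with median scaling. In the fit of the first prefix with array number it differed by -1.20 (adjusted p = 0.00252), and by -0.36 (adjusted p = 0.202) with median scaling added. Its highest ovary value came from a single array, 2 h after ablation, replicate 1. Probe 89-123 ran from 8.57 to 10.48 in wild ovary (median 10.22), against 7.51 to 11.73 in wild eyestalk (median 11.29), and differed by -0.88 ± 0.38 (adjusted p = 0.0444). Its call was lost when any of 14 of the 30 arrays was left out (largest adjusted p = 0.0851), with scan set as a random block (adjusted p = 0.114) and with median scaling (0.11, adjusted p = 0.861). In the fit of the first prefix with array number its change was -1.28 (adjusted p = 2.57e-08), and -0.39 (adjusted p = 0.214) with median scaling added.

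Ribosomal protein L18 was lower in wild ovary than in wild eyestalk by 2 of its 3 probes under quantile normalisation without a block for scan set. Probe 57-91 ran from 9.32 to 11.12 in ovary (median 10.44), against 9.99 to 12.44 in eyestalk (median 11.12), and differed by -0.78 ± 0.30 (adjusted p = 0.0219). Probe 211-245 ran from 9.02 to 10.49 in ovary (median 9.62), against 9.28 to 11.43 in eyestalk (median 10.28), and differed by -0.71 ± 0.27 (adjusted p = 0.0229). The ranges of the tissues overlapped for both probes, and with median scaling the changes were 0.49 and 0.20, neither called. With scan set as a random block neither was called (adjusted p = 0.056 for 57-91 and 0.0755 for 211-245). Within the first prefix and with array number in the fit, 57-91 was no longer called (-0.34, adjusted p = 0.275) and 211-245 was (-0.76, adjusted p = 0.00228). With median scaling added to that fit, 211-245 changed by -0.03 (adjusted p = 0.935) and 57-91 by 0.68 (adjusted p = 0.189). The third probe, 251-285, was faint, above the non-specific level on 10 of 12 ovary and 2 of 12 eyestalk arrays, and differed by 0.18 (adjusted p = 0.417).

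Ubiquitin did not pass the test between the wild tissues. Its probe 123-157 ran from 10.55 to 12.05 in wild ovary (median 11.44), against 10.22 to 13.16 in wild eyestalk (median 11.91). The other ubiquitin probe, 283-317, ran from 8.94 to 10.13 in ovary (median 9.54), against 7.62 to 11.34 in eyestalk (median 10.25). The eyestalk values enclosed the ovary values for both probes. The differences were -0.57 (123-157, adjusted p = 0.1) and -0.47 (283-317, adjusted p = 0.245).

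Histone H1 went the other way from the ribosomal probes. Its probe 52-85 ran from 7.83 to 9.56 in wild ovary (median 9.07), against 6.68 to 9.27 in wild eyestalk (median 7.16). It was above the non-specific level on 11 of 12 ovary arrays and on 3 of 12 eyestalk arrays, and its 3 highest eyestalk values came from 2 h of replicate 1 and preablation and 2 h of replicate 2. The change was 1.38 ± 0.33 (SE, adjusted p = 0.000508) and rests, on the eyestalk side, on values mostly at or under the non-specific level. It was called in each of the 30 fits that left out 1 array and in each of the 13 other settings (largest adjusted p = 0.00542). Of the 13, 1 kept only probes above the non-specific level on enough arrays. This probe passed that filter through the tissues where it was high, so that setting adds no support. The second H1 probe, 351-385, ran from 9.22 to 10.33 in ovary (median 9.98), against 7.03 to 11.59 in eyestalk (median 9.19), and its change of 0.44 was not called (adjusted p = 0.349). With median scaling it was called higher in ovary, at 1.30 (adjusted p = 0.0164).

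**Figure D3:**
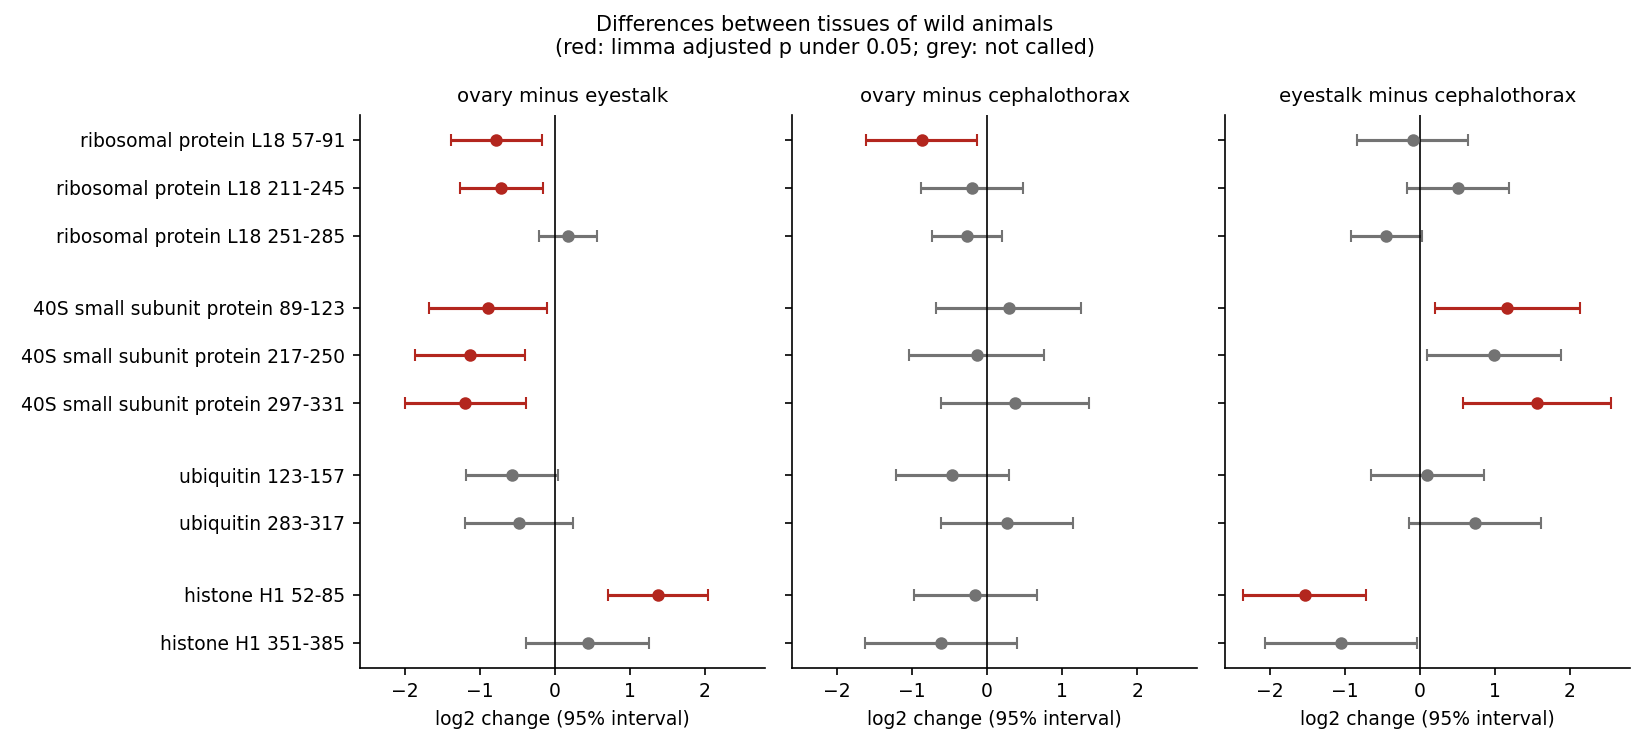
Log2 change (x axis) of each of the 10 probes (y axis) in wild ovary minus wild eyestalk, wild ovary minus wild cephalothorax and wild eyestalk minus wild cephalothorax, with 95% intervals of the fit and called probes in red. With quantile normalisation, ovary minus eyestalk is above 0 for histone H1 52-85 and below 0 for the 3 probes of the 40S protein, and ovary minus cephalothorax has 1 called probe, L18 57-91.

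Cephalothorax, the body region that holds the hepatopancreas and other organs, had 1 of the 10 probes called against wild ovary and 3 against wild eyestalk. Between wild ovary and cephalothorax 1 probe was called, lower in ovary, where 56.2% of all probes were called and 23.8% were lower. That was L18 57-91, which ran from 9.32 to 11.12 over 12 wild ovary arrays (median 10.44), against 10.73 to 12 over 6 cephalothorax arrays (median 11.25). Its change of -0.87 ± 0.36 (adjusted p = 0.0419) was lost when any of 9 of the 30 arrays was left out (largest adjusted p = 0.112) and was 0.32 (adjusted p = 0.553) with array number within prefix in the fit. Ovary and cephalothorax share no prefix, so no direct comparison within 1 could be made.

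Between wild eyestalk and cephalothorax 3 of the 10 probes were called, where 54.1% of all probes were. In eyestalk 2 were higher, against 33.1% of all probes, and 1 was lower, against 21%. Histone H1 52-85 ran from 6.68 to 9.27 in eyestalk (median 7.16), against 7.65 to 10.57 in cephalothorax (median 8.97), and was lower in eyestalk by -1.53 ± 0.40 (adjusted p = 0.00211). The probe exceeded the non-specific level on 3 of 12 eyestalk arrays and 6 of 6 cephalothorax arrays, so the size of the change rests on few measured eyestalk values. Matched by array number, the 4 eyestalk arrays of set 6 lay below the cephalothorax arrays at 4 of 4 numbers, by -3.41 to -1.30. At numbers 1 to 3 the matched stages differed. All eyestalk arrays of the second prefix are in set 6, so tissue and scan set cannot be told apart within that prefix. In the fit of the second prefix with array number, H1 52-85 changed by -2.12 ± 0.33 (adjusted p = 0.00282), where 41.7% of all probes were called. With median scaling over all arrays it was the 1 probe of the 10 called (-1.55, adjusted p = 0.0103), where 40.5% of all probes were.

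The 40S protein was higher in eyestalk than in cephalothorax by 2 of its 3 probes over all arrays, and these were not called in the fit of the second prefix with array number, where the third was. Probe 297-331 ran from 7.56 to 12.20 in eyestalk (median 11.55), against 7.90 to 10.87 in cephalothorax (median 9.90), with a change of 1.57 ± 0.48 (adjusted p = 0.00796). Probe 89-123 ran from 7.51 to 11.73 in eyestalk (median 11.29), against 8.05 to 11.04 in cephalothorax (median 9.91), with a change of 1.17 ± 0.47 (adjusted p = 0.037). That call was lost when any of 9 of the 30 arrays was left out (largest adjusted p = 0.145), with scan set as a random block (adjusted p = 0.088), with median scaling (adjusted p = 0.382) and by the methods' t-test (adjusted p = 0.108). The call of 297-331 was lost with median scaling (1.21, adjusted p = 0.1) and by the methods' t-test (adjusted p = 0.053). The eyestalk arrays above all of cephalothorax for 297-331 were the 8 of sets 4 and 5 and arrays 3 and 4 of set 6, while arrays 1 and 2 of set 6 read 9.88 and 7.56. Within the second prefix and with array number in the fit, the changes were -0.05 (adjusted p = 0.819) for 297-331 and 0.09 (adjusted p = 0.828) for 89-123. In that fit 217-250 (0.65, adjusted p = 0.0113) and ubiquitin 283-317 (1.18, adjusted p = 0.016) were higher in eyestalk and L18 251-285 (-0.72, adjusted p = 0.023) was lower. Matched by array number, 217-250 was higher in eyestalk at 4 of 4 numbers, by 0.30 to 0.93, with the same limits of stage and scan set as above. With median scaling added to the fit, 297-331 was called lower in eyestalk (-0.79, adjusted p = 0.00639), in a fit that called 41.1% of all probes.

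In captive females, ubiquitin was lower in ovary than in eyestalk. Its probe 123-157 read 10.53, 10.40, 10.98 and 10.20 in captive ovary, in the order of the 4 stages, against 12.51, 11.84, 13.03 and 12.60 in captive eyestalk. Every ovary array lay below every eyestalk array. The change was -1.96 ± 0.28 (SE, adjusted p = 0.000569), and it was the 1 of the 10 probes called, where 37.1% of all probes were called and 21.9% were lower in ovary. Probe 283-317 read 7.46, 9.37, 9.32 and 9.11 in captive ovary, against 8.87, 11.08, 11.50 and 11.77 in captive eyestalk, with a change of -1.99 ± 0.69 (adjusted p = 0.0508). In both tissues its preablation array, which is array 1, was the lowest.

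The captive tissues were hybridised at the same stages on the same array numbers, so each stage gives a matched pair. Ubiquitin 123-157 was lower in captive ovary at 4 of 4 stages, by -2.40 to -1.43, and 283-317 at 4 of 4, by -2.65 to -1.41. Ribosomal protein L18 57-91 was lower in ovary at 4 of 4 stages as well, by -1.57 to -0.71, and so were L18 211-245 (-1.63 to -0.14) and 40S 217-250 (-1.49 to -0.47). With array number in the fit, these 5 probes were called lower in captive ovary, where 50.9% of all probes were called in either direction. In number, the 5 calls did not exceed that share. The share of all probes called lower in that fit is not given here, nor the share lower at 4 of 4 stages. Whether the 5 probes differ from the rest of the array in this was not tested. In the fit with array number, the ubiquitin changes were -1.96 ± 0.19 (adjusted p = 0.000685) and -1.99 ± 0.23 (adjusted p = 0.00147).

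Over the 529 brighter probes of the captive arrays the median change was -1.08, against -0.91 for the 10 probes. With median scaling these medians were -0.24 and -0.08, and ubiquitin changed by -0.68 (123-157, adjusted p = 0.443) and -1.03 (283-317, adjusted p = 0.303). Histone H1 52-85, which differed between the wild tissues, read 7.50, 7.64, 9.11 and 8.69 in captive ovary, against 8.17, 7.38, 8.25 and 9.41 in captive eyestalk. The captive tissues overlapped, with a change of -0.07 (adjusted p = 0.935). Whether the captive and wild tissue differences differ from each other was not tested.

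Before vitellogenesis, all 10 probes had a change below 0 in captive against wild ovary. Their median was -0.73, against -0.17 over the 937 brighter probes of the ovary arrays and -0.03 over all probes. The share of all probes below 0 is not given here. On the captive preablation array 30.7% of probes exceeded the non-specific level, against 44.4% on the captive postablation array. Over these 2 arrays the median SD of the 10 probes was 1.22. A change below 0 need not mean that both arrays were low. L18 57-91 read 9.04 and 11.04, against a median of 10.44 over 12 wild ovary arrays. The 2 captive arrays are numbers 1 and 2 of set 7, and 6 of the 10 probes were lowest on 1 of those numbers throughout the second prefix. Captive previtellogenic ovary and those array numbers cannot be told apart. Of the 10 probes, 1 was called, where 23.2% of all probes were called and 9.15% were lower. That probe, histone H1 52-85, read 7.50 and 7.64 in captive previtellogenic ovary, against 7.83 to 9.56 over 6 wild arrays (median 8.97). Both captive arrays lay below every wild one, and 1 of 2 captive and 5 of 6 wild arrays exceeded the non-specific level. The change was -1.23 ± 0.35 (adjusted p = 0.0223), with adjusted p = 0.136 without the captive preablation array, 0.0583 without the captive postablation array and 0.101 with median scaling. The second H1 probe changed by -0.43 (adjusted p = 0.204).

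Ubiquitin was not called between captive and wild previtellogenic ovary. Its probe 123-157 read 10.53 and 10.40 there, against 10.64 to 11.96 in wild previtellogenic ovary (median 11.44), and the groups did not overlap. The changes of -0.96 (123-157, adjusted p = 0.0977) and -1.07 (283-317, adjusted p = 0.0639) missed the threshold. With array number in the fit, 4 probes were called, all lower in captive ovary, where 25.1% of all probes were called in either direction. These were both ubiquitin probes (adjusted p = 0.0344 and 0.0262), H1 52-85 (0.036) and L18 211-245 (0.0268). That fit used the same array-number term for both prefixes, though their patterns differed. On array 1, L18 211-245 deviated by -0.75 from its set's mean in the first prefix and by 0.20 in the second. These calls are thus not corrected for the pattern within each prefix. With median scaling, ubiquitin 123-157 (-2.22, adjusted p = 0.0381) and 40S 297-331 (-2.06, adjusted p = 0.0445) were called instead, where 11.2% of all probes were. Median scaling also lowered the median of all probes to -0.21, against -0.03 with quantile normalisation. The 937 brighter probes had a median of -0.77 against -0.17, and the 10 probes one of -1.67 against -0.73. Of all called probes, 60.5% were higher in captive ovary with quantile normalisation and 46.2% with median scaling. Captive ovary and scan set 7 cannot be told apart.

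Between captive and wild vitellogenic ovary none of the 10 probes was called by limma, where 0% of all probes were, and 0 of the 10 had an unadjusted p under 0.05. The methods' t-test also called 0. Histone H1 52-85 read 9.11 and 8.69 in captive vitellogenic ovary and changed by -0.24 (adjusted p = 0.812) against wild. Ubiquitin 123-157 read 10.98 and 10.20 and changed by -0.83 (95% interval -1.69 to 0.03, adjusted p = 0.353).

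All 10 probes had a change above 0 in vitellogenic against previtellogenic captive ovary, and none was called by limma, where 10.1% of all probes were. Of the 10, 2 had an unadjusted p under 0.05: H1 52-85 with a change of 1.33 ± 0.43 (adjusted p = 0.0638) and 40S 297-331 with 1.29 ± 0.46 (adjusted p = 0.0833). Histone H1 52-85 read 9.11 and 8.69 in captive vitellogenic ovary, against 7.50 and 7.64 in captive previtellogenic ovary, without overlap. The 40S probe read 10.15 and 10.35, against 10.02 and 7.90. The median change of the 10 was 0.75 with quantile normalisation and 1.77 with median scaling. Over the 937 brighter probes these medians were 0.14 and 0.87, and over all probes -0.01 and 0.18. Of the probes called on the array, 27.3% were higher in vitellogenic ovary with quantile normalisation and 79.5% with median scaling. These arrays differ in array number as they do in phase.

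In wild ovary the same comparison called none of the 10 probes by limma and 0% of all probes, with 0 of the 10 at an unadjusted p under 0.05. Histone H1 52-85 changed by 0.33 (95% interval -0.20 to 0.86) between wild vitellogenic and previtellogenic ovary. Tested directly, the captive phase change minus the wild one was 1.00 ± 0.50 for H1 52-85 (adjusted p = 0.281). It was above 0 for all 10 probes, of which none was called, where 2.28% of all probes were. No probe of the 10 had an unadjusted p under 0.05 in that test.

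**Figure D4:**
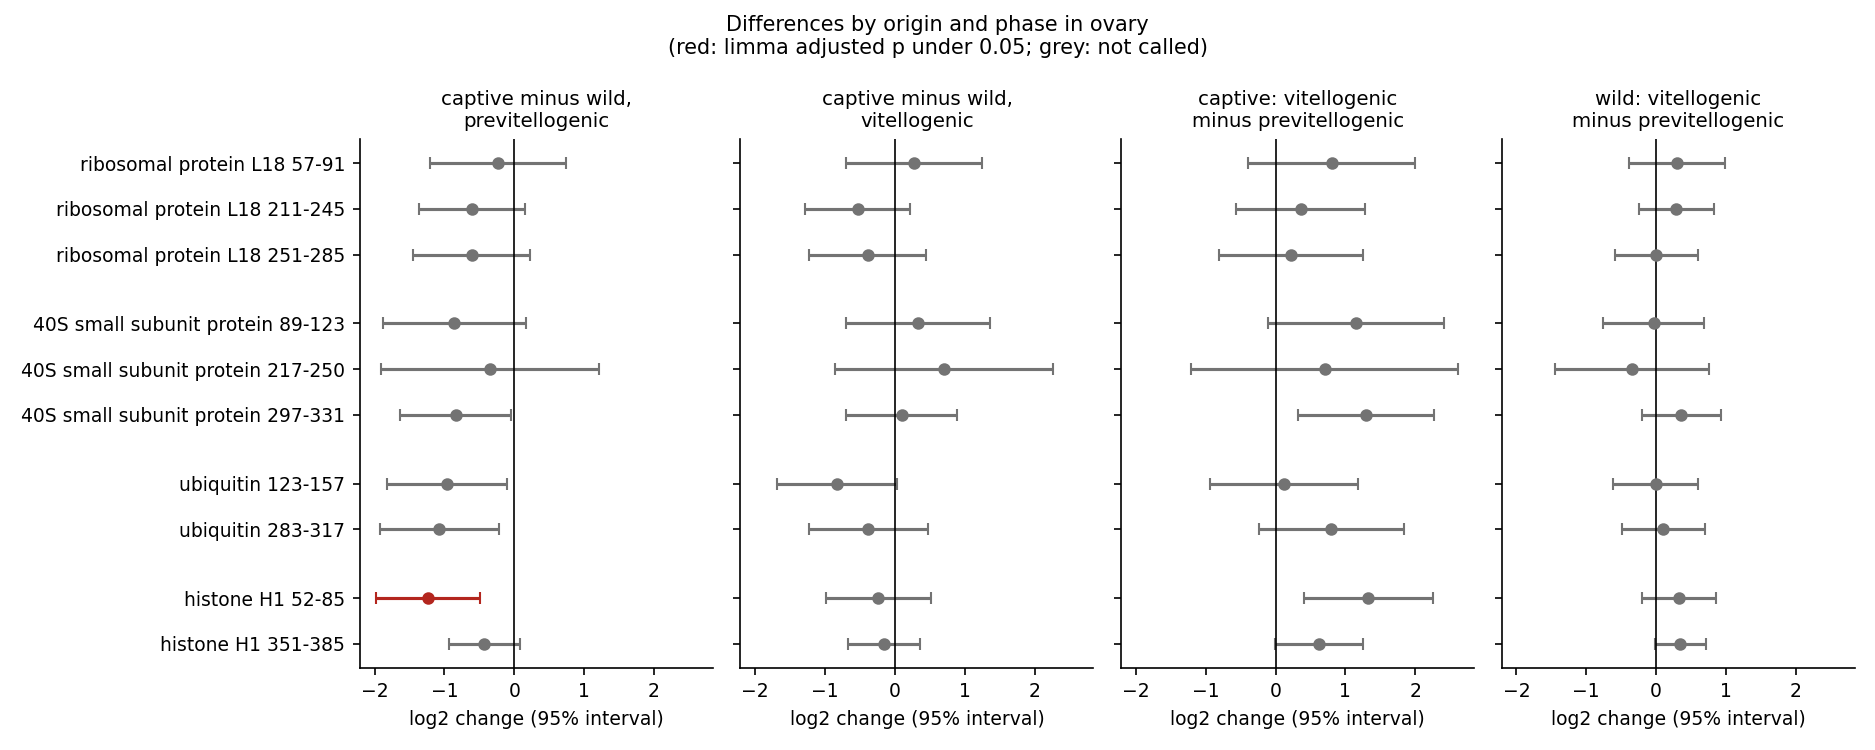
Log2 change (x axis) of each of the 10 probes (y axis) in 4 ovary comparisons: captive minus wild when previtellogenic, captive minus wild when vitellogenic, vitellogenic minus previtellogenic in captive ovary, and the same in wild ovary, with 95% intervals of the fit. All 10 changes are below 0 in the previtellogenic origin panel, and histone H1 52-85 is the called probe (red).

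In eyestalk, no phase or origin comparison called any of the 10 probes by limma. The share of all probes called was 0% for vitellogenic against previtellogenic captive eyestalk and 0.625% for the same comparison in wild eyestalk. It was 0.67% for captive against wild previtellogenic eyestalk, 0% for the vitellogenic one and 0.0446% for the difference of the phase changes. At an unadjusted p under 0.05 these comparisons had 1, 1, 1, 2 and 1 of the 10 probes, in the same order. The methods' t-test called 0 in each of the 4 comparisons it covers.

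All 10 changes were above 0 in vitellogenic against previtellogenic captive eyestalk, as in captive ovary, on the same array numbers. The 40S probe 297-331 read 11.80 and 11.90 in captive vitellogenic eyestalk, against 9.66 and 8.19 in captive previtellogenic eyestalk, with a change of 2.93 ± 1.19 (adjusted p = 0.546). In wild eyestalk 7 of the 10 changes were below 0, with H1 351-385 lowest at -1.55 (95% interval -3.05 to -0.05, adjusted p = 0.623). Histone H1 52-85 read 8.25 and 9.41 in captive vitellogenic eyestalk, above every wild vitellogenic eyestalk array. The probe exceeded the non-specific level on 1 of 2 captive and 0 of 6 wild arrays of that phase. The means were 8.83 in captive and 7.20 in wild vitellogenic eyestalk, and the change was not called (adjusted p = 0.465). With each wild value under the non-specific level raised to that level, the captive mean was 1.47-fold higher. That is no minimum, because 1 of the 2 captive arrays did not exceed the level either.

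After ablation of wild females, neither ovary nor eyestalk gave a called probe among the 10. The comparisons were 2 h and 24 h against preablation, and the cortical rod stages against the vitellogenic stage, in each tissue. The share of all probes called by limma was 0% in each of the 6, and 0 of the 10 probes had an unadjusted p under 0.05 in any of them. The changes farthest from 0 among the 10 were -2.05 ± 1.14 for 40S 89-123 at 24 h in eyestalk (adjusted p = 0.992), 1.72 ± 1.16 for 40S 297-331 at the cortical rod stages in eyestalk (adjusted p = 1) and 1.63 ± 0.81 for 40S 217-250 at 2 h in ovary (adjusted p = 0.999). In each, 1 array stood apart from the others compared. At 2 h in ovary the 40S probe read 12.99 and 10.13, against 10.26 and 9.60 before ablation. At 24 h in eyestalk it read 11.56 and 7.51, against 11.73 and 11.45 before ablation, and the 7.51 is array 1 of set 6. The 40S probe 297-331 read 11.94, 12.20, 11.04 and 11.10 at the cortical rod stages of eyestalk, against 12.13 and 7.56 at the vitellogenic stage, and the 7.56 is array 2 of set 6.

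The replicates of a stage could differ by more than the stages did. In wild eyestalk, replicate 2 was above replicate 1 for L18 57-91 at 6 of 6 stages, by 0.92 to 2.45, and below it for 40S 297-331 at 6 of 6, by -4.57 to -0.09. Over all probes 11.8% moved 1 way at all 6 eyestalk stages. In wild ovary none of the 10 probes did so, against 11% of all probes.

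**Figure D5:**
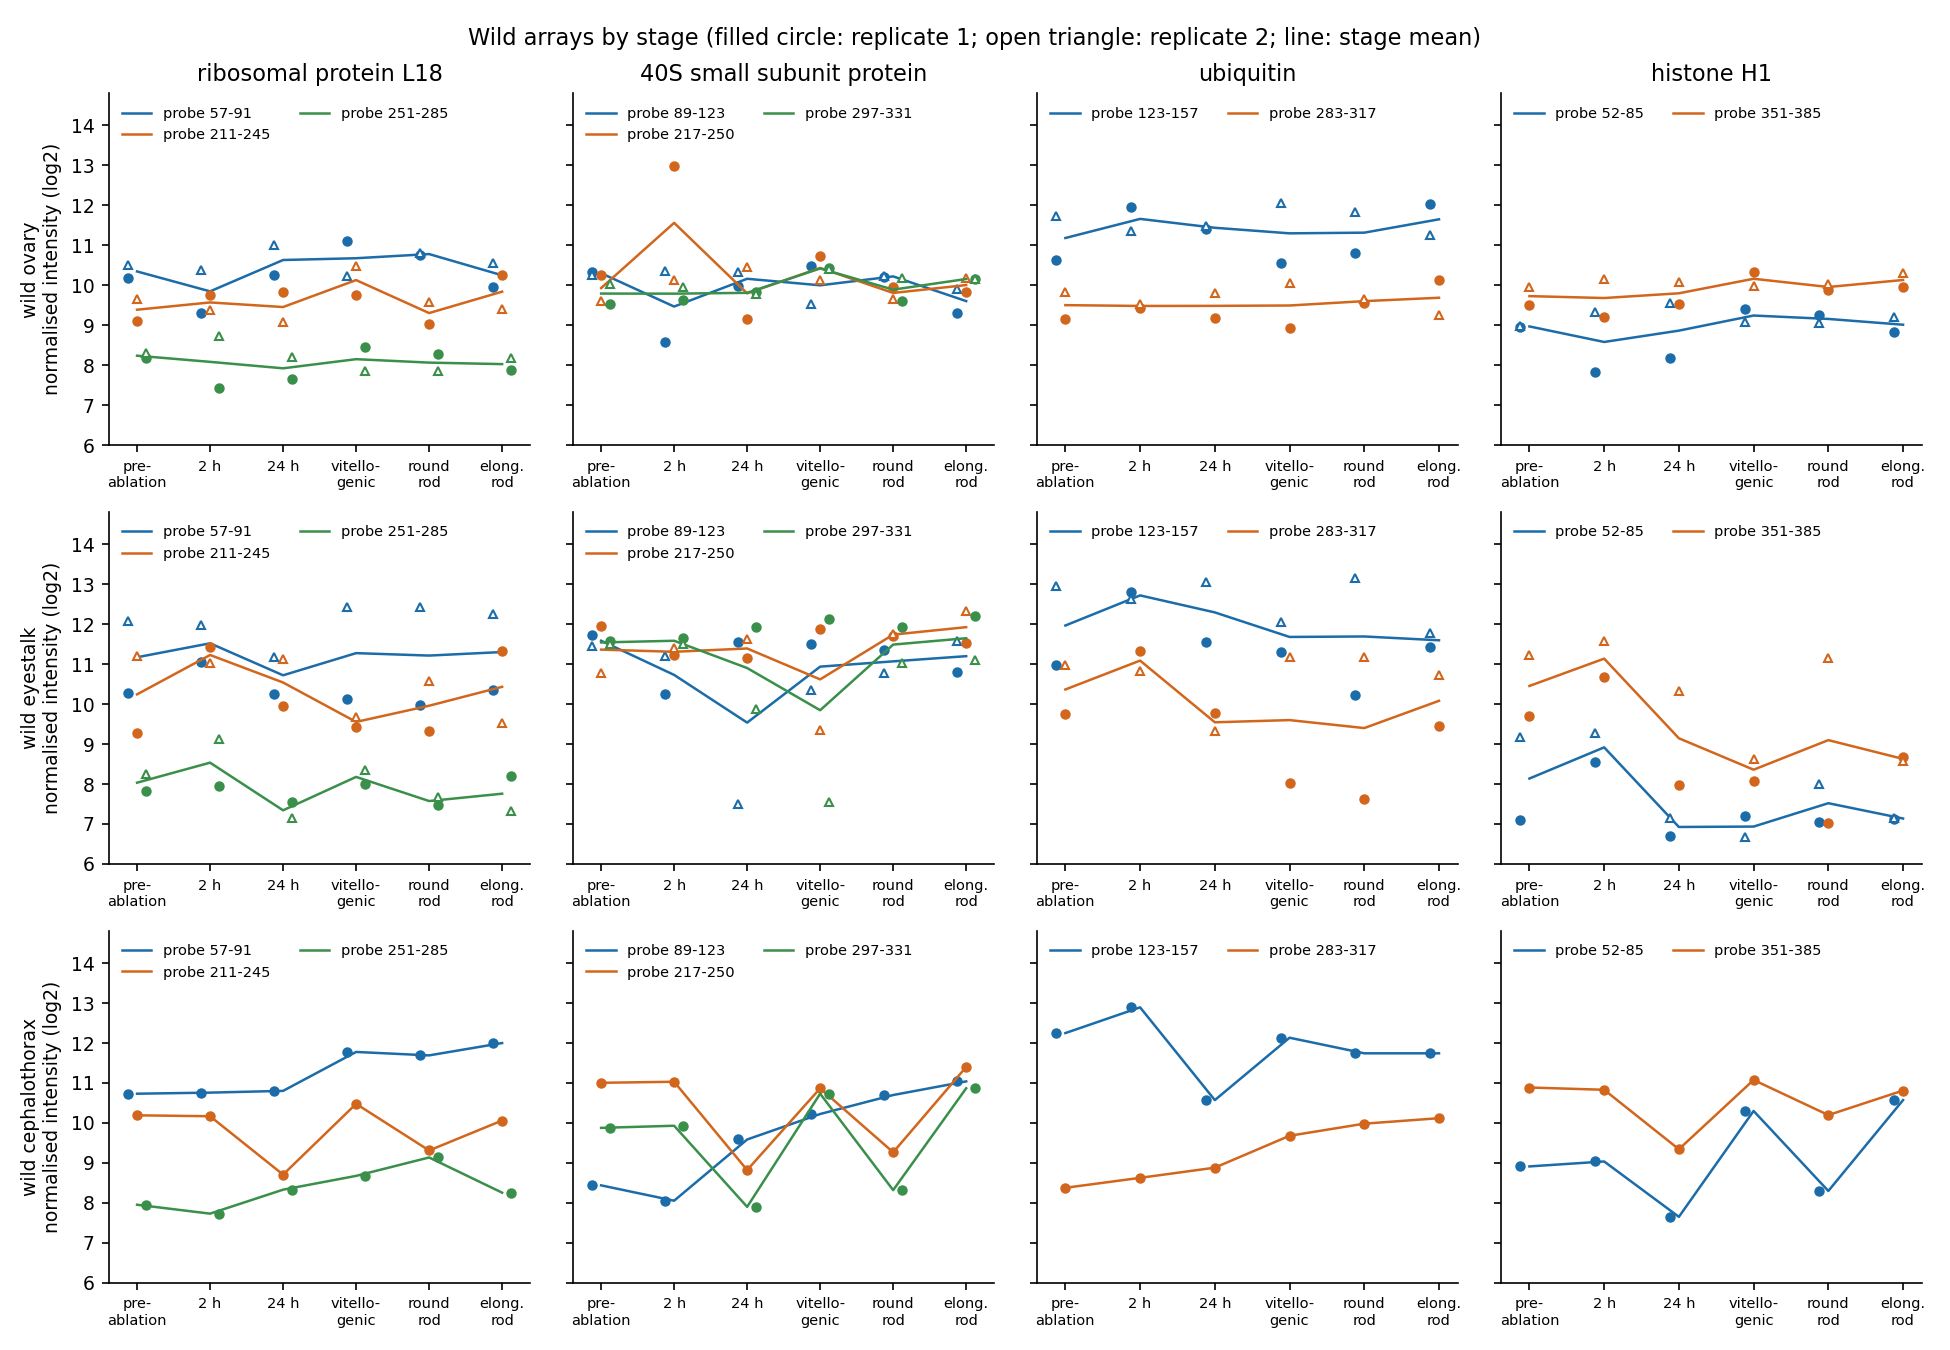
Log2 normalised intensity (y axis) by stage (x axis) for the 4 genes (columns) in wild ovary, eyestalk and cephalothorax (rows), with filled circles for replicate 1, open triangles for replicate 2 and lines through the stage means. Replicates of 1 stage lie far apart in eyestalk, and 3 probes of cephalothorax are higher at the last 3 stages.

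In cephalothorax, 3 of the 10 probes were higher in the vitellogenic than in the previtellogenic phase, where 11.5% of all probes were called and 5.4% were higher. Ribosomal protein L18 57-91 read 11.78, 11.69 and 12 at the vitellogenic, round and elongated cortical rod stages, against 10.73, 10.76 and 10.80 at preablation, 2 h and 24 h. The change was 1.06 ± 0.13 (adjusted p = 0.0071). Ubiquitin 283-317 read 9.68, 9.98 and 10.12, against 8.38, 8.63 and 8.88, and changed by 1.30 ± 0.19 (adjusted p = 0.0117). The 40S probe 89-123 read 10.22, 10.70 and 11.04, against 8.44, 8.05 and 9.59, and changed by 1.96 ± 0.43 (adjusted p = 0.0372). For these 3 probes every vitellogenic array lay above every previtellogenic one. The probes were named because they were called on the same values, and the share of all probes that separate this way is not given here.

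Markers of ovary moved in the same comparison. Of the 16 ovary marker probes, 4 were higher and 5 lower in the vitellogenic phase, with changes from -3.55 to 7.53. The 4 higher were all those of vitellogenin, the yolk protein precursor, which in shrimps is made in the hepatopancreas as well as the ovary. The 5 lower were 2 of 7 probes of peritrophin and 3 of 5 of thrombospondin, both components of the cortical rods. The summed linear level of the 16 probes was 63234 to 71347 on the vitellogenic arrays, against 26825 to 63100 on the previtellogenic ones. Without vitellogenin, peritrophin summed to 2761 to 4974, against 19061 to 45537, and thrombospondin to 1121 to 2162, against 7175 to 17078. Peritrophin and thrombospondin were thus lower, and the 3 probes above higher, on the vitellogenic arrays, and the part of ovary RNA in the result was not tested.

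The same 3 probes were among those lowest on array 1, and in cephalothorax the 2 arrays numbered 1 were previtellogenic. Array 2 is the number that holds both phases there: round cortical rod in set 10 and 24 h in set 9. Between them L18 57-91 read 11.69 against 10.80, ubiquitin 283-317 read 9.98 against 8.88, and the 40S probe 89-123 read 10.70 against 9.59. With array number in the fit the changes were 0.89 (adjusted p = 0.0738), 1.10 (adjusted p = 0.0807) and 1.11 (adjusted p = 0.113), and none of the 10 was called, where 9.55% of all probes were. With median scaling none was called either, where 7.5% of all probes were, and the share of called probes that were higher in the vitellogenic phase was 32.7%, against 47.1% with quantile normalisation. Without the elongated cortical rod array or without the 2 h array, only L18 57-91 was called. Leaving out either of these ended the ubiquitin call (adjusted p = 0.0528 and 0.0501), and the 40S call was lost without any 1 of 5 of the 6 arrays.

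Other 40S and histone probes of cephalothorax were lowest on the arrays numbered 2. The 40S probe 297-331 read 9.88, 9.93, 7.90, 10.73, 8.32 and 10.87 from preablation to elongated cortical rod, and its low values at 24 h and round cortical rod are the arrays numbered 2. Histone H1 52-85 read 8.91, 9.04, 7.65, 10.30, 8.30 and 10.57 in the same order, and was also lowest on those 2 arrays.

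Probes of 1 gene share their target. Of 8 pairs of such probes in each tissue, 2 passed an adjusted Pearson p under 0.05 in wild ovary and 1 in wild eyestalk, and none passed by Spearman rank. Of 37 pairs of probes of different genes, 4 passed by Pearson in wild ovary and 2 in wild eyestalk. The median r of same-gene pairs was -0.09 in ovary and 0.39 in eyestalk, against 0.10 and 0.09 for pairs of different genes, and the highest r of each tissue was between different genes (0.851 and 0.85). Over the 12 wild ovary arrays the H1 probes had Pearson r = 0.847 and Spearman rho = 0.783 (adjusted permutation p = 0.0151 and 0.0747 over 90 pairs). Without the 2 arrays farthest from the median, r was 0.548. In wild eyestalk the H1 probes had r = 0.815 and rho = 0.755 (adjusted permutation p = 0.0151 and 0.0747), and r = 0.708 without the 2 farthest. The ubiquitin probes had r = 0.758 and rho = 0.783 in wild ovary (adjusted permutation p = 0.0477 and 0.0747), and r = 0.569 without the 2 farthest. The L18 probes 57-91 and 211-245 ran against each other in wild ovary (r = -0.391, rho = -0.406, adjusted permutation p = 0.386 and 0.378). A scan set holds at most 4 arrays, too few for a value within it.

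By likeness over all 38 arrays, the probe closest to L18 211-245 was ubiquitin 123-157 (Pearson r = 0.744), and the other members were closest to probes without a gene name. Histone H1 351-385 was closest to an ovarian library clone (r = 0.898), H1 52-85 to a hepatopancreas library clone (r = 0.853) and L18 57-91 to another ovarian clone (r = 0.91). The 40S probe 89-123 had the highest likeness, r = 0.943, with a probe of an unnamed clone. These arrays share tissue, scan set and array number, so the values describe the arrays only.

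The array names no other gene of translation, of the ubiquitin and proteasome pathway or of chromatin, and no actin or tubulin (0 probes in each list). The nearest housekeeping gene is NADH:ubiquinone oxidoreductase of the respiratory chain, with 3 probes. Between wild ovary and wild eyestalk 2 of its 3 probes were called lower in ovary, where 37% of all probes were. Between wild eyestalk and cephalothorax 2 of 3 were called higher in eyestalk, where 33.1% of all probes were. Its changes with median scaling are not given here.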

How the data were processed

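Per the labels' protocols, RNA was amplified and labelled with Cy5, 1 sample to an array. Per the file headers, the deposited files give the linear foreground intensity of each spot and no background; no image software is stated. The authors' value table held the same intensity in 85082 of 85082 values (100%, within 0.01). Foreground means were corrected by normexp (offset 50), log2-transformed and quantile-normalised together over all 38 arrays (limma 3.58.1, R 4.3.3). Tests used lmFit and eBayes with Benjamini-Hochberg adjustment over 2240 probes, in 21 comparisons. Wild tissues were fitted on 30 arrays, captive tissues on 8, ovary and eyestalk on 16 each (origin by phase) or 12 (wild stages), and cephalothorax on 6. SE is that of the fit and SD is over arrays. Arrays carry pools, and their number limits the precision. Correlations used 100000 permutations. The code was tested on simulated data. Alternatives were median scaling, other corrections and filters, blocks for scan set, array number and replicate, other stage sets, single arrays left out, and a t-test named in the methods. All 10 probes are reported, with those called or of widest change named. Other probes are named by likeness: the highest Pearson r for each member. The members and lists were chosen with earlier results of these data known.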

Additional observations from a re-analysis of the deposited data

Results flagged for a closer look

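Each probe was checked for a single array far from the rest of its group in the wild ovary and eyestalk phases of 6 arrays, 40 tests in all, of which chance would give about 1 in 20. A gap was found 7 times, each time in a probe of the 40S protein. On the wild ovary array at 2 h, replicate 1, probe 89-123 was lowest at 8.575 (others 9.993 to 10.36) and probe 217-250 highest at 12.992 (others 9.145 to 10.451). On the wild ovary array at the round cortical rod stage, replicate 1, probe 297-331 was lowest at 9.607 (others 10.147 to 10.437). On the wild eyestalk array at 24 h, replicate 2, probe 89-123 read 7.509 (others 10.252 to 11.727) and probe 297-331 read 9.877 (others 11.499 to 11.929). On the wild eyestalk array at the vitellogenic stage, replicate 2, probe 217-250 read 9.347 (others 11.526 to 12.326) and probe 297-331 read 7.561 (others 11.04 to 12.203). Those 2 eyestalk arrays are arrays 1 and 2 of scan set 6. Whether the array or the pool accounts for these values was not tested.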

How the results depend on the processing

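Of 538 recalculated counts of called probes over 21 comparisons, 489 stayed within 1.5 times the reported count. Most of these comparisons reported 0, and a repeated 0 was taken as unchanged, so the comparisons with calls are given singly. For wild ovary against eyestalk (6 reported), median scaling gave 2, scan set as a random block 3, and the first prefix with array number and median scaling 2. For wild ovary against cephalothorax (1), median scaling, the random block and stage as a covariate gave 0, array number within prefix 3, the methods' t-test 2, and single arrays left out 0 to 1. For wild eyestalk against cephalothorax (3), median scaling and the methods' t-test gave 1, the second prefix with array number and median scaling 5, and single arrays left out 2 to 5. For captive ovary against eyestalk (1), median scaling gave 0, quantile normalisation within the fit and the brighter probes 2, array number 5, and left-out arrays 1 to 2. For captive against wild previtellogenic ovary (1), median scaling gave 2, array number 4, the methods' t-test 0, and left-out arrays 1 to 3. For cephalothorax (3), median scaling gave 0, the methods' t-test 1, and left-out arrays 1 to 3, and the fit with array number rests on 1 array against 1. Captive ovary phase (0) gave 1 at matched stages and 0 to 3 with arrays left out, and left-out arrays gave 0 to 1 for the ovary difference of phase changes, captive against wild previtellogenic eyestalk, 2 h in wild ovary and 24 h in wild eyestalk. The replicate block gave 2 for ovary against cephalothorax and 5 for eyestalk against cephalothorax and moved no other count of these probes. Same-numbered replicates did not deviate together throughout (r -0.328 to 0.655 in ovary and -0.139 to 0.582 in eyestalk over 15 stage pairs each), so the numbers were not taken as pairs.

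Of 513 recalculated probe changes, 430 kept direction and call, 74 lost the call and 9 turned round. Turned by median scaling, for ovary minus eyestalk, were L18 211-245 (0.197), L18 57-91 (0.485) and 40S 89-123 (0.106), and L18 57-91 also in the first prefix (0.676). Turned by array number were L18 57-91 for ovary minus cephalothorax (0.319) and, for eyestalk minus cephalothorax, 40S 297-331 (-0.049 within prefix and -0.049 in the second prefix alone) and, with median scaling, 297-331 (-0.787) and 89-123 (-0.603). The cause was not tested. Over all probes, captive against wild previtellogenic ovary called 519, against 251 with median scaling, 167 among brighter probes, 164 by the t-test and 277 to 579 with arrays left out (277 without the captive preablation array). Captive ovary phase called 227, against 73, 32 and 0 in those settings and 40 to 418 with arrays left out (40 without the captive elongated cortical rod array, 418 without the captive postablation array). The ovary difference of phase changes called 51, against 0 with median scaling and 1 to 255 without the same 2 arrays. Cephalothorax phase called 257, against 168 with median scaling, 28 by the t-test and 102 to 362 with arrays left out. Wild eyestalk phase called 14, against 26 with the replicate block, and captive against wild previtellogenic eyestalk 15, against 193 without the wild 24 h replicate 2 array. Signal limits L18 251-285 and H1 52-85 most, which did not exceed the non-specific level on many eyestalk arrays.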
